A study of Mus musculus with 2 samples.

Results

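The 8 genes described here encode the TEAD transcription factors of the mouse and the cofactors that bind them: *Vgll3* and *Vgll4*, *Tead1* to *Tead4*, *Yap1*, and *Wwtr1*, which encodes TAZ. They were taken by gene symbol from tables of cultured cardiac myofibroblasts and are 8 of 24532 genes in the count table. Cardiac myofibroblasts are the matrix-producing cells of the injured heart, and here they came from the hearts of C57BL/6 mice (C57BL/6J in the study's methods) 3 days after myocardial infarction, as the CD45-negative cells that attach to plastic. Both cultures received 12.5 nM siRNA by lipofection, a control siRNA (siCtrl) in one and an siRNA against *Vgll3* (si*Vgll3*) in the other, and their mRNA was sequenced after 72 h. There was 1 library of each condition and 1 siRNA against *Vgll3*, and how many hearts went into a culture is not given in the sources used here.

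TEAD proteins bind DNA at the MCAT box but activate few genes without a cofactor. YAP and TAZ are such cofactors, held in the cytoplasm when the Hippo kinases MST and LATS phosphorylate them and moved into the nucleus on stiff substrates. Vestigial-like (VGLL) proteins bind the same TEAD surface through their Tondu domain, VGLL4 being known mainly as a competitor of YAP and VGLL3 as a cofactor of its own.

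Since TEAD proteins can act on the genes of their own pathway, the promoters of the 8 genes were read for the core of the MCAT box, the 6 bases CATTCC, on either strand. RefSeq promoter sequences of GRCm38.p6 were at hand for 6 of the 8 genes. In the 250 bases before any of their annotated starts, 5 of these 6 held the core, compared with 14.4% of the 27025 genes with such a sequence. *Tead2* was the one of the 6 without it. The stretch around the core is shown for each of the 5 genes, with all 3 matches of *Tead3*, on the strand of the gene and with the core in capitals (GGAATG is CATTCC on the opposite strand):
Vgll3: cgcctccccaCATTCCggctaccctg
Vgll4: agtggggtggGGAATGctgagaaatg
Yap1: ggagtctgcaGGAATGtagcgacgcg
Wwtr1: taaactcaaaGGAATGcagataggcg
Tead3, farthest: cgacgagcgaGGAATGgggtgcgcgg
Tead3, middle: cggccgggctCATTCCgtacattccg
Tead3, nearest: tcattccgtaCATTCCggccatcccc

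The *Vgll3* stretch, chr16:65815116-65815141 on the plus strand, places the core 63 bases before the RefSeq start. The *Vgll4* stretch is chr6:114969270-114969295 (82 bases before the start), *Yap1* chr9:8004722-8004747 (141 bases), *Wwtr1* chr3:57576031-57576056 (136 bases) and the farthest of *Tead3* chr17:28350972-28350997 (182 bases), all on the minus strand. The other matches of *Tead3*, chr17:28350708-28350733 (123 bases) and chr17:28350699-28350724 (114 bases), belong to a second annotated start, and their stretches overlap each other. They and the *Vgll4* stretch lie inside the genes as GENCODE annotates them, and the other 4 stretches lie upstream of theirs. A match of 6 bases is a description of the sequence and not a binding site. Over the genes measured with a mean above 1 TPM, the log2 difference between the libraries had a median of −0.06 for the 1154 genes with the core and −0.04 for the 7844 genes without it.

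The siCtrl library held 140815237 reads counted on genes and the si*Vgll3* library 125789276. Levels are given as TPM, transcript abundances scaled to gene length and to a fixed total for each library. M is the log2 ratio of TPM in si*Vgll3* to siCtrl, and A is log2 of the mean TPM of both libraries. Brackets after M give the 95% Clopper-Pearson interval of the read count ratio, shifted onto the TPM ratio, and those after a TPM the exact Poisson interval. All of these cover counting error only and compare 2 libraries, so no difference has a replicate check and no test between the conditions was made. Markers of fibroblasts and myofibroblasts were high, with a summed 18947 TPM in siCtrl, compared with 14943 TPM in si*Vgll3* over 10 genes. Of these, 5 had M < −0.5, beside 11.4% of all genes with A > 0, and 2 had M > 0.5, beside 5.73%. Lower were the collagens *Col1a1* (4918 and 2631 TPM, M of −0.90), *Col3a1* (2980 and 1645 TPM, −0.86) and *Col1a2* (4585 and 3179 TPM, −0.53). *Postn* (−1.22) and *Tcf21* (−0.58) were lower too. *Thy1* (0.72) and *Tagln* (0.52) were higher, and *Acta2* (0.23), *Ddr2* (0.11) and *Pdgfra* (0.05) lay above 0 within the threshold. Of the other cell types the culture could hold, cardiomyocyte markers summed to 60.0 TPM in siCtrl, compared with 10.4 TPM in si*Vgll3*, all of it *Tnnt2*, while *Myh6*, *Actn2*, *Ttn*, *Nppa* and *Myl2* had 0 reads. Leukocyte markers summed to 13.4 and 6.10 TPM, with *Ptprc*, the gene of CD45, at 0 reads. Of these sums, *Lyz2* made up 10.9 and 3.13 TPM, while *Cd68* had an M of −0.09 and *Csf1r* one of 0.50. Endothelial markers summed to 26.7 and 22.3 TPM, of which *Tek* made up 19.5 and 13.4. Of the other endothelial markers, *Pecam1*, *Cdh5* and *Kdr* had an M of 0.47, 0.50 and 0.97, *Emcn* one of −0.02 and *Vwf* one of −0.51. *Kdr* and *Vwf* were below 1 TPM in both libraries. Pericyte markers summed to 1.62 and 1.36 TPM, and mesothelial markers to 43.7 and 37.4 TPM (2 of 4 genes lower and 2 higher by the same threshold). The part of these cells in the values below was not tested, and in bulk RNA fewer cells of a type cannot be told apart from less RNA per cell.

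*Vgll3*, the target of the siRNA, was lower in the si*Vgll3* library. It had 42925 reads and 202 TPM [199.9, 203.8] in siCtrl, and 16524 reads and 84.0 TPM [82.7, 85.2] in si*Vgll3*. M was −1.27 [−1.29, −1.24], so that 41.6% [40.9%, 42.4%] of the siCtrl level was left. Among the genes with A > 0, only 1.98% had a lower M than *Vgll3*. Of the 879 genes whose A was within 0.5 of its own, 9 had a lower M. By TPM, *Vgll3* was gene 811 of the table in siCtrl and gene 1978 in si*Vgll3*. The gene lies at chr16:65815257-65866368 (plus strand, GENCODE vM21), is listed with 1 RefSeq transcript, and shares no 50-base stretch of its exons with another gene.

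*Vgll4*, at chr6:114860628-114969994 (minus strand), was far lower than *Vgll3* in both libraries. It had 1458 reads and 17.7 TPM [16.8, 18.6] in siCtrl, and 1143 reads and 14.98 TPM [14.1, 15.9] in si*Vgll3*, giving an M of −0.24 [−0.35, −0.13]. The *Vgll3* to *Vgll4* ratio of TPM was 11.4 in siCtrl, against 5.61 in si*Vgll3*. With reads per kilobase of the longest GENCODE transcript, the ratio was 8.52 in siCtrl and 4.18 in si*Vgll3*. The difference in M between *Vgll3* and *Vgll4*, −1.03 [−1.14, −0.91], does not depend on the scaling of the libraries. *Vgll1* and *Vgll2*, which complete the family, were without a read in either library. A count of 0 has a 95% limit of about 3 expected reads, taken on the upper side only.

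**Figure D1:**
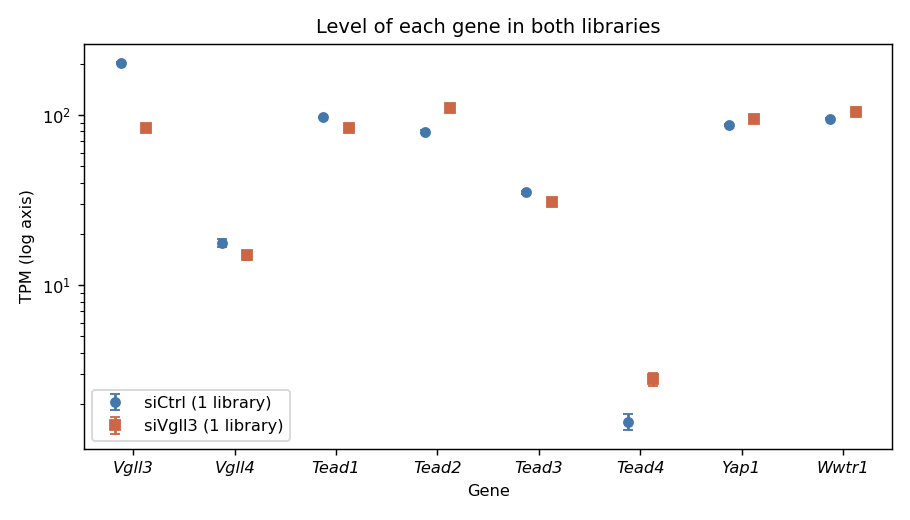
TPM of each of the 8 genes (log axis) in siCtrl (circles) and si*Vgll3* (squares), 1 library each, with the exact 95% Poisson interval of its read count as error bars, which are mostly smaller than the symbols. *Vgll3* was at 202 TPM in siCtrl, compared with 84.0 TPM in si*Vgll3*, and *Tead4* was the lowest of the 8 genes in both libraries.

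The TEAD transcription factors differed among themselves. *Tead1* had 61444 reads and 96.8 TPM in siCtrl, and 47805 reads and 83.9 TPM in si*Vgll3*, giving an M of −0.21 [−0.22, −0.19]. *Tead2* had 10738 reads and 79.5 TPM in siCtrl, and 13681 reads and 109 TPM in si*Vgll3*, giving an M of 0.46 [0.42, 0.50]. *Tead1* was thus the highest TEAD gene in siCtrl and *Tead2* the highest in si*Vgll3*. The *Tead2* to *Tead1* ratio of TPM was 0.821 [0.805, 0.838] in siCtrl, against 1.30 [1.28, 1.33] in si*Vgll3*. The difference in M, *Tead1* minus *Tead2*, was −0.67 [−0.71, −0.63] on TPM and −0.71 on the read counts, so each library scaling gives the same order. *Tead1* lies at chr7:112679318-112906807 and *Tead2* at chr7:45215753-45233644, both on the plus strand.

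*Tead3*, at chr17:28331671-28350817 (minus strand), had 5880 reads and 35.0 TPM in siCtrl, and 4765 reads and 30.7 TPM in si*Vgll3*. Its M of −0.19 [−0.25, −0.14] was close to that of *Tead1*, and the interval of the difference between them held 0 (−0.02 [−0.07, 0.04]). *Tead4*, at chr6:128224288-128300823 (minus strand), had 306 reads and 1.57 TPM [1.40, 1.75] in siCtrl, and 503 reads and 2.80 TPM [2.56, 3.06] in si*Vgll3*. Its M, 0.84 [0.63, 1.05], was the highest of the 8 genes at the lowest level. M spreads more at such levels: of the 931 genes with A within 0.5 of that of *Tead4*, 15.8% had M > 0.5 and 6.66% had a higher M, whereas at the level of *Tead2* these shares were 2.27% and 2.94% of 1190 genes. With 1 TPM added to both libraries, the value of *Tead4* was 0.57. *Tead3* and *Tead4* shared 10 of their 50-base exon stretches, 0.337% and 0.325% of those each has, so few reads could have been split between them.

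As a family, the TEAD genes summed to 213 TPM in siCtrl, compared with 227 TPM in si*Vgll3*, a log2 ratio of 0.09, which was −0.09 relative to *Gapdh*. Within that sum, the share of *Tead1* was 45.5% in siCtrl and 37.0% in si*Vgll3*, and that of *Tead2* was 37.3% and 48.2%. *Tead3* made up 16.4% and 13.5%, and *Tead4* 0.736% and 1.23%. The order of the family thus differed between the libraries while its sum differed little.

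*Yap1* and *Wwtr1* differed little between the libraries. *Yap1*, at chr9:7931999-8004596 (minus strand), had 23006 reads and 87.0 TPM in siCtrl, and 23264 reads and 94.96 TPM in si*Vgll3*, giving an M of 0.13 [0.10, 0.15]. *Wwtr1*, at chr3:57455649-57575910 (minus strand), had 28863 reads and 95.2 TPM in siCtrl, and 29030 reads and 103 TPM in si*Vgll3*, giving an M of 0.12 [0.10, 0.14]. The difference between their values of M was 0.01 [−0.03, 0.04], an interval that held 0. The small positive values turned negative with another reference. Relative to *Gapdh*, itself at 1920 TPM in siCtrl, compared with 2172 TPM in si*Vgll3*, M was −0.051 for *Yap1* and −0.058 for *Wwtr1*. That reference shifted the median of all genes with A > 0 by −0.18. *Wwtr1* made up 52.2% of the summed TPM of the pair in siCtrl and 52.1% in si*Vgll3*.

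**Figure D2:**
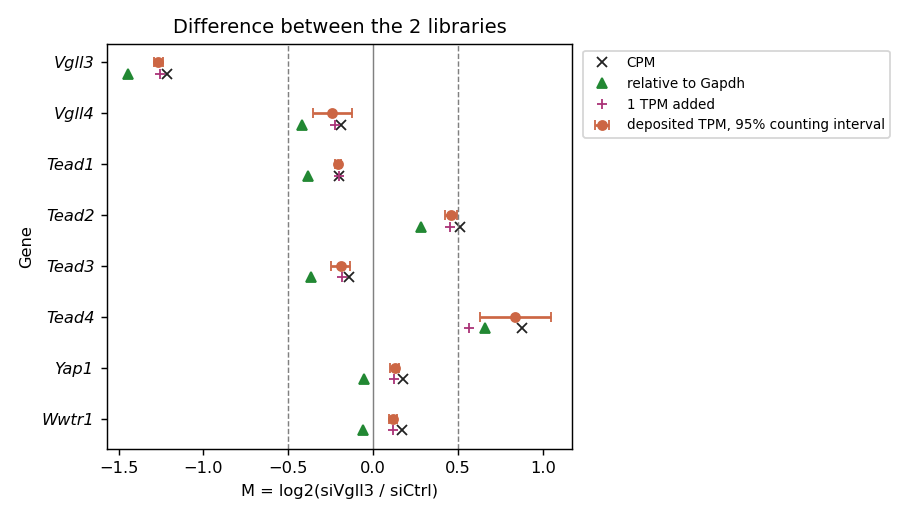
M of each of the 8 genes (log2 of si*Vgll3* over siCtrl) from the deposited TPM with its 95% counting interval (circles), and from CPM, relative to *Gapdh* and with 1 TPM added. Dashed lines mark −0.5 and 0.5. *Vgll3* lies at −1.27, between −1.44 and −1.21 under the other settings drawn, whereas *Yap1* and *Wwtr1* lie above 0 on TPM and CPM and below 0 relative to *Gapdh*.

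With the threshold on M at 0.5 in either direction, used for genes with A > 0, *Vgll3* was the 1 lower gene of the 8 (12.5%) beside 11.4% of all 11754 genes. *Tead4* was the 1 higher gene (12.5%) beside 5.73% of all genes. All 8 genes had A > 0. *Tead2*, at 0.46, lay just inside the threshold, and it passed at 0.51 on CPM and at 0.50 with TMM scaling. On TPM, M was below 0 for 4 genes and above 0 for 4, and relative to *Gapdh* it was below 0 for 6. The interval of M lay away from 0 for all 8 genes. The median absolute M of the 8 genes was 0.22, compared with 0.19 over all genes with A > 0, and 0.21 without *Vgll3*. Among the 28 pairs of the 8 genes, the interval of the difference in M lay away from 0 for 24. It held 0 for *Vgll4* with *Tead1*, *Vgll4* with *Tead3*, *Tead1* with *Tead3* and *Yap1* with *Wwtr1*.

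**Figure D3:**
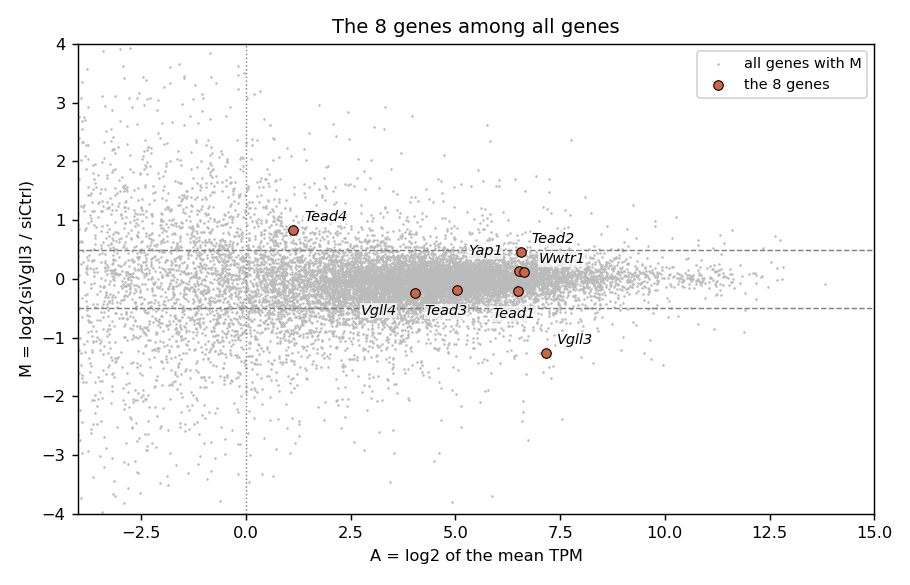
M against A (log2 of the mean TPM) for the genes with a TPM above 0 in both libraries (grey), with the 8 genes in orange, dashed lines at M of −0.5 and 0.5, and a dotted line at A of 0. Of 14149 genes, 334 lie outside the axes. *Vgll3* lies apart from the band of genes of its level, *Tead4* lies where the grey points spread more widely, and the other 6 genes lie between the dashed lines.

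Compared per length within a library, the order of the TPM levels in siCtrl was *Vgll3*, *Tead1*, *Wwtr1*, *Yap1*, *Tead2*, *Tead3*, *Vgll4* and *Tead4*, of which *Tead1* and *Wwtr1* had overlapping intervals. In si*Vgll3* the order was *Tead2*, *Wwtr1*, *Yap1*, *Vgll3*, *Tead1*, *Tead3*, *Vgll4* and *Tead4*, with overlapping intervals for *Vgll3* and *Tead1*. The first place of *Vgll3* in siCtrl rests on the transcript length behind the deposited TPM. With its reads divided by the longest matching GENCODE transcript, 7009 bases, *Vgll3* had 6124 reads per kilobase in siCtrl, beside 6167 for *Tead1* and 6145 for *Wwtr1*. In si*Vgll3* it had 2358 reads per kilobase, beside 6393 for *Tead2*. On this scale, *Vgll3* was level with *Tead1* and *Wwtr1* in siCtrl and below *Tead1*, *Tead2*, *Yap1* and *Wwtr1* in si*Vgll3*.

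The balance of VGLL to TEAD mRNA followed *Vgll3*. *Vgll3* and *Vgll4* together were at 219.5 TPM in siCtrl, compared with 98.9 TPM in si*Vgll3*, of which *Vgll4* made up 8.05% and 15.1%. The VGLL to TEAD ratio of summed TPM was 1.03 [1.02, 1.04] in siCtrl, against 0.436 [0.428, 0.444] in si*Vgll3*, and the VGLL to YAP/TAZ ratio was 1.20 and 0.499. By contrast, the YAP/TAZ to TEAD ratio was 0.856 [0.845, 0.866] and 0.874 [0.863, 0.886]. With reads per kilobase, the VGLL to TEAD ratio was 0.511 in siCtrl and 0.223 in si*Vgll3*, and the VGLL to YAP/TAZ ratio 0.587 and 0.248. The size of these ratios in a library thus depends on the transcript length used, whereas the fold of VGLL to TEAD between the libraries was 2.36 on TPM and 2.28 on reads per kilobase. *Vgll3* made up 32.8% of the TPM of all 8 genes in siCtrl and 16.0% in si*Vgll3*, shares that depend on the transcript length as well.

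**Figure D4:**
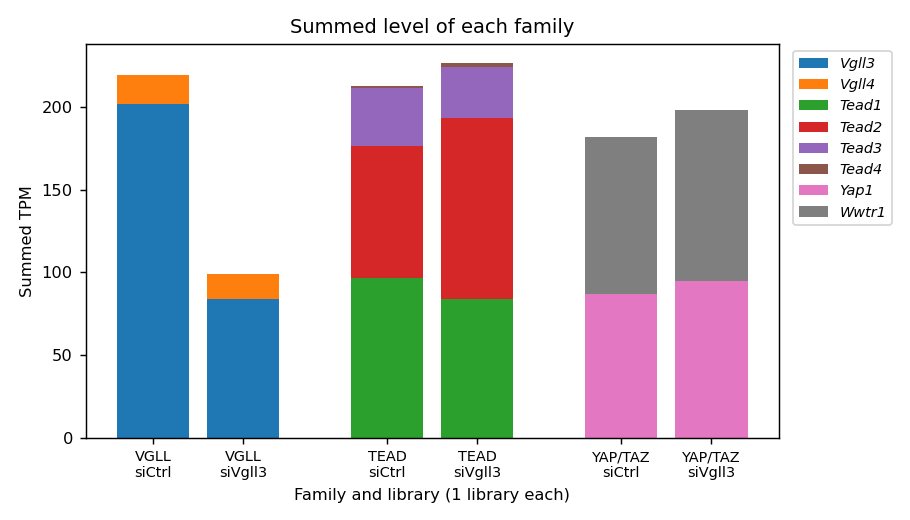
Summed TPM of the VGLL, TEAD and YAP/TAZ genes in each library (1 library each), with the part of each gene in colour. The VGLL bar is 219.5 TPM in siCtrl, compared with 98.9 TPM in si*Vgll3*, while the TEAD bars, 213 and 227 TPM, differ mainly in the parts of *Tead1* and *Tead2*.

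The genes whose levels in both libraries were nearest to those of *Vgll3*, by distance on log2 TPM over the 2 libraries, were *Ptn* (0.09), *Prelp* (0.17), *Ccdc80* (0.20), *Cemip* (0.21) and *Gas6* (0.24). *Prelp* encodes a matrix proteoglycan and *Gas6* the ligand of the receptor AXL. *Ptn*, a secreted growth factor gene, was at 192 TPM in siCtrl, compared with 81.1 TPM in si*Vgll3*. On log2 CPM none of these 5 genes was among the nearest 5, *Ptpn11*, *Tor1aip2*, *Olfml3*, *Svep1* and *Insig1* taking their place. There *Prelp*, *Ccdc80* and *Gas6* stayed near, at ranks 6, 10 and 13, while *Ptn* and *Cemip* moved to ranks 666 and 1062. For *Ptn* and *Cemip*, the likeness to *Vgll3* thus rests on the length scaling as well.

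Around the 8 genes, most genes of the rest of the Hippo pathway stayed within the threshold on TPM, as did most genes with A > 0. Of 71 measured genes in 8 lists of pathway members, 3 had M < −0.5 (4.23%, beside 11.4% of all genes) and 3 had M > 0.5 (4.23%, beside 5.73%), with a median M of −0.04, beside −0.05 over all genes with A > 0. The shares of all genes depend on level. Of 2049 genes with A within 0.5 of that of *Tead3*, 6.15% had M < −0.5 and 2.68% had M > 0.5. The pathway's 4.23% lay below the first of these shares and above the second, though its genes span other levels too. In the kinase core, MST, LATS and their scaffolds, none of 8 genes passed the threshold and M ran from −0.19 to 0.15. Its highest gene, *Sav1*, the scaffold of MST, was at 113 TPM in siCtrl, compared with 118 TPM in si*Vgll3*. Of 10 kinases upstream of or parallel to MST, *Stk38l*, a relative of LATS, was higher (15.2 and 22.0 TPM, M of 0.54 [0.48, 0.60]). *Map4k4*, the highest of them, had an M of 0.13. In the STRIPAK phosphatase complex, which removes the activating phosphate of MST, 1 of 11 genes was higher. This was *Strn3*, a striatin that scaffolds the complex, at 46.6 TPM in siCtrl, compared with 79.3 TPM in si*Vgll3* (M of 0.77 [0.73, 0.80]), whereas the catalytic subunit gene *Ppp2ca*, the highest of the list, had an M of 0.01.

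Among 16 cytoplasmic and junctional regulators of YAP and TAZ, 2 were lower. *Crb2*, a polarity protein of the apical membrane, was at 1.66 TPM in siCtrl, compared with 0.616 TPM in si*Vgll3* (M of −1.44 [−1.66, −1.22]). *Fjx1*, a secreted relative of the Four-jointed kinase, had an M of −0.58, and of −0.49 with 1 TPM added. The highest gene of this list, *Amotl2*, an angiomotin that holds YAP in the cytoplasm, was at 137 TPM in siCtrl, compared with 107 TPM in si*Vgll3*, giving an M of −0.35 that did not pass the threshold. None of the 14-3-3 genes, whose proteins hold phosphorylated YAP (7 genes, median M of 0.12, *Ywhae* highest with an M of 0.09), and none of the genes for YAP and TAZ degradation (7 genes, median M of 0.06, *Skp1a* highest with an M of 0.09) passed it. Relative to *Gapdh*, these small positive values are negative, *Stk38l* no longer passed, and *Strn3* still did (M of 0.59). Lower genes by that reference numbered 5 among the junctional regulators, 2 among the kinases upstream of or parallel to MST and 1 in STRIPAK. Over all 11754 genes they numbered 2357.

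The other coregulators of TEAD were mostly below 0. In this list, 8 of 9 genes had an M below 0 and the median was −0.19, but only *Ncoa1*, a steroid receptor coactivator, passed the threshold, at 6.67 TPM in siCtrl, compared with 4.66 TPM in si*Vgll3* (M of −0.52 [−0.60, −0.44]). It no longer passed on CPM, with TMM scaling, with DESeq2 size factors, centred on the median or with 1 TPM added. Relative to *Gapdh* it passed at −0.69, and 4 of the 9 genes were lower by the threshold. *Irf2bpl*, the highest of the list, was the 1 gene above 0 (M of 0.22). The actin-linked factors that act beside YAP, *Srf* (M of −0.10), *Mkl1* (−0.21) and *Mkl2* (−0.27), the last 2 being older symbols of the MRTF genes, did not pass it.

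**Figure D5:**
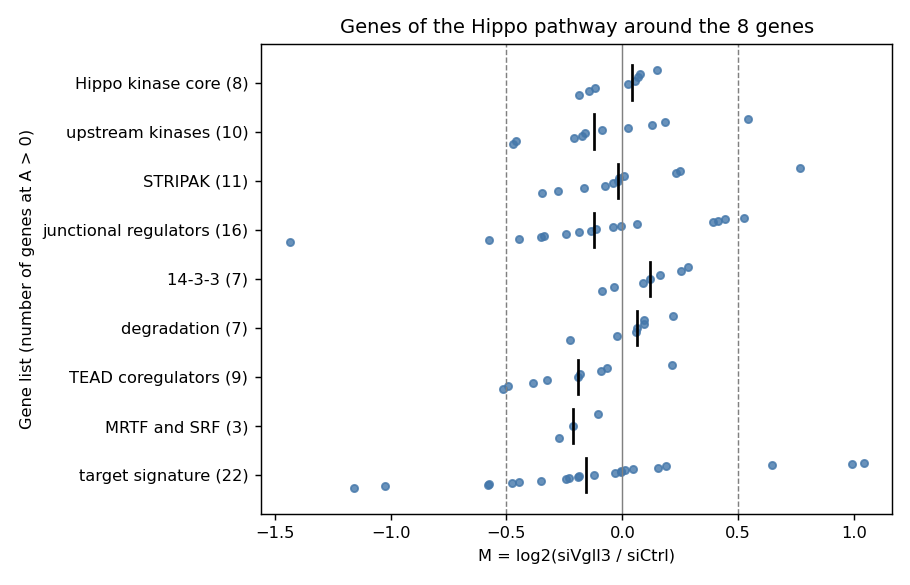
M of each gene with A > 0 in the lists of the Hippo pathway, in each list's row (points, with the median as a black bar), and dashed lines at −0.5 and 0.5. Nearly all genes of the 8 upper rows lie between the dashed lines, with *Crb2* (−1.44) and *Strn3* (0.77) at their ends. The target signature in the lowest row runs from −1.16 to 1.04, with 4 of 22 genes lower and 3 higher. *Fjx1*, *Amotl2*, *Lats2* and *Ptpn14* are drawn in the lowest row and also in an upper row.

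Textbook targets of YAP, TAZ and TEAD went in both directions. Of 22 target genes, 4 were lower (18.2%, beside 11.4% of all genes) and 3 higher (13.6%, beside 5.73%), with a median M of −0.15. Relative to *Gapdh*, 7 were lower and 2 higher, *Dock5* no longer passing. The lower genes were *Igfbp3* (21.3 TPM in siCtrl, compared with 9.53 TPM in si*Vgll3*, M of −1.16), *Ccdc80* (194 and 95.8 TPM, −1.02), *Fjx1* (6.61 and 4.43 TPM, −0.58) and *Tgfb2*, a TGF-β ligand (30.7 and 20.5 TPM, −0.58). The higher genes were *Foxf2* (2.39 and 4.92 TPM, 1.04), *Ankrd1*, a stress-induced cofactor of muscle (586 and 1164 TPM, 0.99), and *Dock5*, an activator of Rac (5.91 and 9.26 TPM, 0.65). The gene of connective tissue growth factor, *Ctgf*, the most abundant of the list, was at 1467 TPM in siCtrl, compared with 1481 TPM in si*Vgll3*, giving an M of 0.01 [0.00, 0.02], and *Cyr61*, named here outside the rule for its use as a readout of YAP, had an M of −0.01 [−0.02, 0.01]. *Ankrd1* and *Ctgf*, both common readouts of YAP activity, thus differed from each other in the same libraries.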

How the data were processed

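RNA sequencing of cardiac myofibroblasts was analysed, with 1 library of siCtrl and 1 of si*Vgll3*, grouped by their labels. Per the study's methods, the authors prepared TruSeq Stranded mRNA LT libraries, sequenced them on a NovaSeq instrument, and ran FastQC for quality, Trimmomatic for trimming, HISAT2 for alignment against mm10, and StringTie for assembly of known genes. Tool versions, annotation release and the strand setting of the counting are not given in the sources used here. The authors deposited raw read counts per gene, whole numbers without normalization, in 1 table. They also deposited TPM per gene, normalised to gene length and sequencing depth, in a table for each library, for 14158 genes. An annotated antisense transcript shares 116 exon bases with *Yap1*, and *Cd37*, at 0 reads, shares 13 with *Tead2*.

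M, A and the thresholds (0.5 on M, 0 on A) were taken on TPM with nothing added. With 1 library per condition no model was fitted, and edgeR 4.0.16 and DESeq2 1.42.0 (R 4.3.3) gave scaling factors only (TMM 0.997 and 1.003, size factors 1.05 and 0.949). Intervals used scipy 1.17.1 in Python 3.11.15. Those of read counts and of the read count ratio were tested on simulated Poisson counts, the error they assume, which leaves the spread between cultures untested. The shift of the count ratio interval onto the TPM ratio, which gives the interval of M, was not simulated. Intervals of ratios between genes or families and of differences in M used a normal approximation on the log scale and were not simulated. Positions and transcript lengths came from GENCODE vM21 (GRCm38, the assembly of mm10), and promoter sequences from RefSeq for GRCm38.p6.

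The members, the gene lists and the alternatives were chosen with earlier results of these data known. The rule for names took the 8 genes, *Vgll1*, *Vgll2*, the 5 genes nearest to *Vgll3* with 50 reads or more in the library where they were higher and no Gm, Rik or pseudogene symbol, each pathway or target gene past the threshold, the gene of each list with the largest mean TPM, and *Gapdh*. Genes named outside it, such as *Cyr61*, the genes nearest on CPM and the other genes of short lists, were chosen after their values were seen. One gene of the pathway lists that the rule takes is not reported here. Of the symbols listed, *Ccn1* and *Ccn2* were matched as *Cyr61* and *Ctgf*, and *Mrtfa* and *Mrtfb* as *Mkl1* and *Mkl2*. The alternatives were CPM, TMM scaling, DESeq2 size factors, *Gapdh* as reference, M centred on its median, 0.1 or 1 TPM added, A > 2, no filter on A, at least 10 reads in each library, A taken as the mean of both log2 values, a threshold of 1, the whole interval past 0.5, values summed per symbol, other length scalings, and distance on CPM. Reads per kilobase of the longest GENCODE transcript was chosen after seeing the data.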

Additional observations from a re-analysis of the deposited data

How the results depend on the processing

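No paired analysis was possible because there was 1 library per condition, and for the same reason no replicate could be left out. *Vgll3* had an M of −1.21 on CPM, −1.22 with TMM scaling, −1.23 with DESeq2 size factors, −1.22 centred on the median and −1.44 relative to *Gapdh*. *Gapdh* moved the other genes by as much, to −0.42 for *Vgll4*, −0.38 for *Tead1*, 0.28 for *Tead2* and −0.37 for *Tead3*, and turned the direction for *Yap1* (−0.051) and *Wwtr1* (−0.058). In the order CPM, TMM scaling, DESeq2 size factors and centring, M was 0.51, 0.50, 0.50 and 0.51 for *Tead2*, 0.18, 0.17, 0.17 and 0.17 for *Yap1*, and 0.17, 0.16, 0.16 and 0.17 for *Wwtr1*. Centring gave −0.16 for *Tead1*, and 1 TPM added gave 0.57 for *Tead4*. The difference *Tead1* minus *Tead2* was −0.71 on CPM and with both other scalings of the counts.

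Higher genes among the 8 numbered 2 on CPM, TMM scaling, DESeq2 size factors and centring, with *Tead2* added, and 0 with A > 2, which leaves *Tead4* out, or with a threshold of 1. Over all genes, lower genes numbered 2357 relative to *Gapdh*, 2103 without a filter on A and 384 with a threshold of 1. Higher genes numbered 418 relative to *Gapdh*, 393 with A > 2, 1428 without a filter, 1159 with at least 10 reads in each library, 207 with a threshold of 1 and 442 with the whole interval past 0.5.

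The VGLL to TEAD ratio was 0.724 on the mean of both libraries, and 0.511 (siCtrl) and 0.223 (si*Vgll3*) on reads per kilobase. The *Tead2* to *Tead1* ratio was 1.05 on the mean, and in si*Vgll3* 1.34 with the transcript length implied by siCtrl and 1.33 on reads per kilobase. Of the 5 genes nearest to *Vgll3*, 0 remained among the nearest 5 on log2 CPM, where *Prelp*, *Ccdc80* and *Gas6* ranked 6, 10 and 13. Of 196 differences between pairs of the 8 genes over the scalings, 19 left the counting interval. The sign changed in 3 of them, all *Vgll4* minus *Tead1*, from −0.033 on TPM to 0.011 on CPM, TMM scaling and DESeq2 size factors, where the interval held 0. With 1 library per condition, the spread between cultures was not measured, and neither was that between siRNAs.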
